A study of Mus musculus with 24 samples.

Results

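The genes described here are 9 heat shock chaperone genes of the mouse, Hspa1a, Hspa1b, Hspa5, Hspa8, Hsph1, Hsp90aa1, Hsp90ab1, Dnajb1 and Hspb1. They were chosen by gene symbol, all 9 were found among the 24972 genes listed for both sexes, and all 9 passed the filter on low values in each sex and over both. RNA-seq was performed on the medial prefrontal cortex of offspring on postnatal day 21 (P21), with 6 libraries in each of 4 groups, SAL and MO males and SAL and MO females. SAL dams received saline and MO dams received morphine sulfate, an agonist of the μ opioid receptor, once daily under the skin from a week before breeding until weaning, at 10 mg/kg after lower doses on the first days. Only the dams were injected, so the pups met the drug before birth and through nursing. The dams were C57BL/6J and the sires DBA/2J, and all offspring, SAL and MO alike, were therefore wild-type B6D2F1/J hybrids. Small litters were combined after birth, the tissue was cut from brains kept in RNAlater with a brain block, and the labels do not tie a male and a female library to a shared litter. By the study's methods no litter gave more than 1 offspring to a group, so p-values within a sex measure the spread between animals of different litters. Males and females of a treatment can be littermates, and tests over both sexes treat them as independent animals, so p-values over both sexes, among them those of Hsph1 and Hspa8, may be too small.

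Heat shock proteins are chaperones that bind unfolded or newly made proteins and keep them from aggregating. The HSP70 proteins (Hspa1a, Hspa1b and Hspa8 in the cytosol, Hspa5 in the endoplasmic reticulum) hold a client in an ATP-driven cycle, in which the J-domain protein encoded by Dnajb1 starts ATP hydrolysis and the HSP110 protein encoded by Hsph1 exchanges the nucleotide. The HSP90 proteins encoded by Hsp90aa1 and Hsp90ab1 mature signaling clients such as kinases and steroid receptors, and the small heat shock protein encoded by Hspb1 holds unfolded proteins without ATP. In unstressed brain Hspa8 and both HSP90 genes are expressed at high levels by neurons, whereas Hspa1a and Hspa1b are low until heat, ischemia or strong activity releases heat shock factor 1, which binds repeats of the letters GAA and TTC upstream of its targets.

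Stretches with these repeats are shown because the members differ in them. RefSeq windows of the 250 bases before a start site (GRCm38.p6) were given for 6 of the 9 genes, Hspa1a, Hspa1b, Hspa5, Hsph1, Dnajb1 and Hspb1. GAANNTTC and TTCNNGAA were searched as written, and each reads the same on the opposite strand. One or the other was found in 12.9% of all 32536 RefSeq windows of this length, and in those of Hspa1a, Hspa1b, Hspb1 and Hsph1. The Dnajb1 windows held none of these, and in 1 of them 245 of the 250 bases lie in annotated exons. The Hspa5 window held the endoplasmic reticulum stress element (CCAAT and CCACG with 9 bases of any kind between them, searched on both strands), which was found in 0.114% of all windows. Each line gives 30 bases around a match, 5′ to 3′ on the strand of the gene, with the match in capitals.
Hspa1a (chr17:34972242-34972271, minus strand): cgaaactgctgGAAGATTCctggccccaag
Hspa1b (chr17:34959324-34959353, minus strand): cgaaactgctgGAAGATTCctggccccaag
Hspb1, first match (chr5:135887791-135887820, plus strand): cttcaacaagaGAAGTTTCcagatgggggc
Hspb1, second match (chr5:135887811-135887840, plus strand): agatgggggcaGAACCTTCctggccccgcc
Hsph1 (chr5:149636351-149636380, minus strand): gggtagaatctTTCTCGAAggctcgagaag
Hspa5 (chr2:34772019-34772048, plus strand): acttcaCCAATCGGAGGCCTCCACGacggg
A match is a stretch of letters and not a measured binding site. In Hspa1a and Hspa1b the match began 104 bases before the start site, in Hspb1 the matches began 117 and 97 bases before it, and in Hsph1 the match began 33 bases before the first listed start site.

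Hspa1a and Hspa1b lie next to each other on chromosome 17 (34969359 to 34972156 and 34956429 to 34959238), and their 250 upstream bases are identical at 247 positions. Counted from the 5′ end of the window, Hspa1a first, the differences are C44T, T47C and T249G. The whole Hspa1a window (chr17:34972157-34972406, minus strand) is printed here because it stands for both genes.
Hspa1a: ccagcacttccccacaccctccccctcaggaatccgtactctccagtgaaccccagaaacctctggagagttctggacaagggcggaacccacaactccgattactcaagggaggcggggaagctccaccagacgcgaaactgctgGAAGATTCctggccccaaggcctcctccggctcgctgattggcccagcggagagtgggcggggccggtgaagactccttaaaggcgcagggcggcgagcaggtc
The transcripts are also close to each other. Of all stretches of 85 bases, the read length, in the annotated transcripts of Hspa1a, 50.4% also occur in Hspa1b, and 53.5% of those in Hspa1b occur in Hspa1a. How the reads were split between both genes is therefore uncertain. Pseudogenes and other copies share 45.4% of such stretches with Hspb1, 41.0% with Hsp90aa1 and 30.5% with Hspa8, whereas Hspa5, Hsph1, Hsp90ab1 and Dnajb1 share none.

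One library, the female MO library PFC1, stood apart from the others, and the differences between MO and SAL in females are given with and without it, as are the calls over both sexes. The normalized counts of a library summed to between 14728966 (PFC1) and 15966593 (PFC17, male MO), and the number of reads behind these sums is unknown. The cortical marker Slc17a7, a glutamate transporter of excitatory neurons, was present in every library, at 30034 to 38176 normalized counts in 23 libraries and at 24987 in PFC1. Compared with the mean of the other 5 female MO libraries, all 5 oligodendrocyte markers were higher in PFC1, and their summed level was 289500 against 43430 to 163300. All 5 striatal markers were higher (4556 against 1341 to 2080), as were all 5 astrocyte markers (31450 against 14850 to 20750) and all 5 blood markers (18870 against 4608 to 17530). All 5 microglial, all 7 endothelial and all 5 meningeal markers were also above the mean of those libraries, while 4 of 5 markers of excitatory neurons and 4 of 5 of interneurons were below it. None of the oligodendrocyte, striatal or astrocyte markers was at 0 in any library. In bulk tissue, fewer cells of a type and less RNA per cell cannot be told apart.

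Hspa8 and both HSP90 genes were the most abundant members. To compare genes, normalized counts were divided by the length of the longest protein-coding transcript in kilobases. On this scale the level over 24 libraries was 16761 for Hspa8, 13710 for Hsp90ab1 and 10626 for Hsp90aa1, and this order held in all 24 libraries. Hspa5, the HSP70 of the endoplasmic reticulum, followed at 2125 per kilobase and Hsph1 at 1768, with Hspa5 above Hsph1 in 23 of 24 libraries. Dnajb1 was at 372 per kilobase and Hspb1 at 127. Hspa1a and Hspa1b were last, at 40.1 and 37.9 per kilobase, and did not differ beyond their spread, since Hspa1a was the higher in 16 of 24 libraries. Together the 9 genes made up between 0.542% (PFC1) and 0.939% (PFC4, female SAL) of the summed normalized counts of a library.

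**Figure D1:**
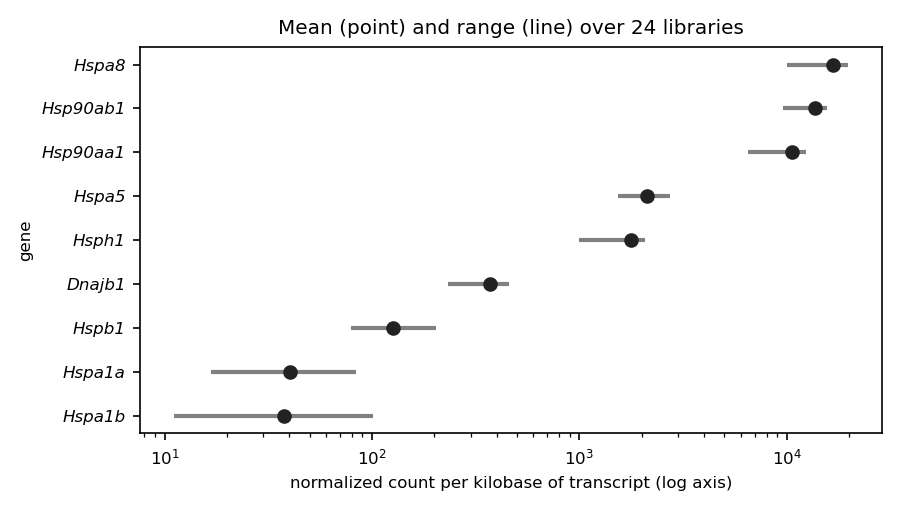
Level of each of the 9 genes as normalized counts per kilobase of transcript, on a log axis, with the mean over 24 libraries as a point and the range as a line. The genes fall between 37.9 for Hspa1b and 16761 for Hspa8, and the lines of Hspa1a and Hspa1b overlap along most of their length.

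The 3 members with the lowest levels had the largest spread. The SD of log2 values within groups was 0.76 for Hspa1b, 0.46 for Hspa1a and 0.38 for Hspb1, which was above that of 99.8%, 98.4% and 97.2% of the 11783 genes with a mean of at least 50 in both tables. The SD was 0.21 for Dnajb1, 0.20 for Hspa5, 0.18 for Hsph1, 0.17 for Hspa8, 0.16 for Hsp90aa1 and 0.13 for Hsp90ab1, against a median of 0.15 over those genes. Without PFC1 the SD of Hspa8, Hsph1, Hsp90aa1 and Hsp90ab1 dropped to between 0.08 and 0.11, below the median of 0.13, and that of Hspa1b stayed at 0.77. The comparison with other genes was not matched for level, and the uncertain split of reads between Hspa1a and Hspa1b can add to their SD.

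The first question was whether the heat shock genes differed between MO and SAL offspring of each sex. Hspa1a, the stress-induced HSP70, was the only member at an unadjusted limma p under 0.05 in males, a call that did not pass the correction over all genes. In males its normalized count had a lowest, median and highest value of 104, 141 and 161 in SAL and of 71.9, 93.7 and 160 in MO. Of the 6 male MO libraries, 4 lay below every SAL library, while PFC15 and PFC19 lay within the SAL range, so the groups overlapped. The mean was 104 ± 33.2 in MO and 135 ± 22.7 in SAL (SD, n = 6 each), a log2 fold change of -0.40 (SE 0.17, 95% interval -0.76 to -0.05). The exact permutation test over all relabellings gave p = 0.0714, and limma gave an unadjusted p = 0.0282 and an adjusted p = 1.00. The unadjusted call was lost when any of PFC9, PFC16 and PFC20 (SAL) or PFC10, PFC13 and PFC17 (MO) was left out, with log2 fold changes of -0.31 to -0.37. In females the lowest, median and highest values were 86.4, 123 and 250 in SAL and 49.7, 99.9 and 163 in MO. The groups overlapped, with PFC1 and PFC5 below every SAL library and the SAL library PFC7 above every MO library. The log2 fold change was -0.44 (SE 0.27, exact permutation p = 0.210), and it was -0.25 without PFC1 (SE 0.23, exact permutation p = 0.420) and -0.25 without PFC7. Over both sexes the log2 fold change of Hspa1a was -0.42 (SE 0.17, permutation p = 0.0293, limma adjusted p = 0.847). Without PFC1 it was -0.33 (SE 0.15, permutation p = 0.0596, limma adjusted p = 0.998).

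Hspa1b, its neighbor and near copy, differed by a like amount with a wider error. In males its lowest, median and highest values were 50.9, 119 and 184 in SAL and 39.6, 85.1 and 182 in MO. In females they were 60.5, 93.2 and 283 in SAL and 31.1, 89.5 and 136 in MO. The groups overlapped in both sexes, with 1 MO library below every SAL library in each. The log2 fold change was -0.42 in males (SE 0.32, exact permutation p = 0.327) and -0.42 in females (SE 0.38, exact permutation p = 0.381). Without PFC1 the female value was -0.36 (SE 0.39, exact permutation p = 0.502), and without the SAL library PFC7 it was -0.14. In males it was -0.65 without PFC15 and -0.21 without PFC17. Because reads of both genes can be exchanged, their sum was also tested, an alternative chosen after the data were seen. The sum was 197 ± 81.5 in male MO and 255 ± 70.1 in male SAL (SD, n = 6 each), with a log2 fold change of -0.41 (SE 0.23, exact permutation p = 0.173). In males limma gave an unadjusted p = 0.0833 for the sum (exact permutation as above), so the male call for Hspa1a was lost when the copies were added up. In females the log2 fold change of the sum was -0.40 (SE 0.29, exact permutation p = 0.284), and -0.28 without PFC1 (SE 0.29, exact permutation p = 0.487). Over both sexes it was -0.41 (SE 0.20, permutation p = 0.0782), and there the sum passed the unadjusted limma threshold (p = 0.0489, limma adjusted p = 0.847). Without PFC1 it was -0.35 and did not pass (SE 0.20, permutation p = 0.135, limma unadjusted p = 0.0868).

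Dnajb1 encodes the J-domain partner of these HSP70 proteins. In males its lowest, median and highest values were 1092, 1228 and 1295 in SAL and 965, 1073 and 1335 in MO. The same 4 male MO libraries as for Hspa1a (PFC10, PFC11, PFC13 and PFC17) lay below every SAL library, and PFC15 lay above every SAL library. The log2 fold change was -0.12 in males (SE 0.07, exact permutation p = 0.175) and -0.15 in females (SE 0.13, exact permutation p = 0.351). Without PFC1 the female value was -0.04 (SE 0.10, exact permutation p = 0.695).

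Hsph1, the nucleotide exchange factor of HSP70, was the other member at an unadjusted limma p under 0.05 over both sexes. In males its lowest, median and highest values were 6548, 7008 and 7841 in SAL and 6518, 6650 and 7463 in MO. In females they were 6471, 7139 and 7504 in SAL and 3798, 6298 and 7280 in MO. In females 3 of 6 MO libraries (PFC1, PFC5 and PFC21) lay below every SAL library, and in males 1 did. The log2 fold change was -0.07 in males (SE 0.05, exact permutation p = 0.212) and -0.25 in females (SE 0.13, exact permutation p = 0.0649). Over both sexes it was -0.16 (SE 0.07, permutation p = 0.0186, limma adjusted p = 0.847), and without PFC1 it was -0.10 (SE 0.04, permutation p = 0.0355, limma adjusted p = 0.998). The unadjusted limma call was lost when any of PFC16 (male SAL), PFC2 and PFC7 (female SAL) or PFC5 (female MO) was left out.

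Hspa8, the constitutive HSP70, had lowest, median and highest values of 38377, 42309 and 45104 in male SAL and of 38981, 40767 and 42392 in male MO. In females they were 36442, 40984 and 47339 in SAL and 24077, 37931 and 42122 in MO. In females PFC1 and PFC5 lay below every SAL library, and the log2 fold change was -0.23 with PFC1 (SE 0.13, exact permutation p = 0.106) and -0.12 without it (SE 0.08, exact permutation p = 0.210). Over both sexes the log2 fold change was -0.14 (SE 0.07, permutation p = 0.0400, limma unadjusted p = 0.0613), and without PFC1 it was -0.08 (SE 0.05, permutation p = 0.0784). With all libraries the permutation p of Hspa8 was thus under 0.05 and the limma p was not.

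The HSP90 genes had the smallest differences of the members in males. In males the mean of Hsp90aa1 was 35421 ± 1605 in MO and 35663 ± 901 in SAL (SD, n = 6 each), a log2 fold change of -0.01 with a 95% interval of -0.10 to 0.07. In females its log2 fold change was -0.18 (SE 0.13, exact permutation p = 0.149) and moved to -0.07 without PFC1 (SE 0.07, exact permutation p = 0.303). For Hsp90ab1 the mean in males was 34740 ± 1021 in MO and 35690 ± 1980 in SAL (SD, n = 6 each), and the log2 fold change was -0.04 (95% interval -0.13 to 0.05). In females it was -0.14 (SE 0.11, exact permutation p = 0.210), and -0.05 without PFC1 (SE 0.07, exact permutation p = 0.422).

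Hspa5 (BiP), the chaperone whose release starts the unfolded protein response, had a mean of 7471 ± 746 in male MO and 8034 ± 1153 in male SAL (SD, n = 6 each). Its log2 fold change was -0.10 in males (SE 0.09, exact permutation p = 0.364) and -0.15 in females (SE 0.12, exact permutation p = 0.275). Without PFC1 the female value was -0.07 (SE 0.10, exact permutation p = 0.524). Hspb1 (HSP25 in the mouse) was the member that was not lower in female MO, with 127 ± 31.5 against 121 ± 40.6 in female SAL (SD, n = 6 each). Its log2 fold change was 0.10 in females (SE 0.22, exact permutation p = 0.682) and -0.04 in males (SE 0.15, exact permutation p = 0.812). The 95% interval was -0.36 to 0.57 in females and -0.36 to 0.27 in males. Without PFC1 the female value was 0.05 (SE 0.22, exact permutation p = 0.844).

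**Figure D2:**
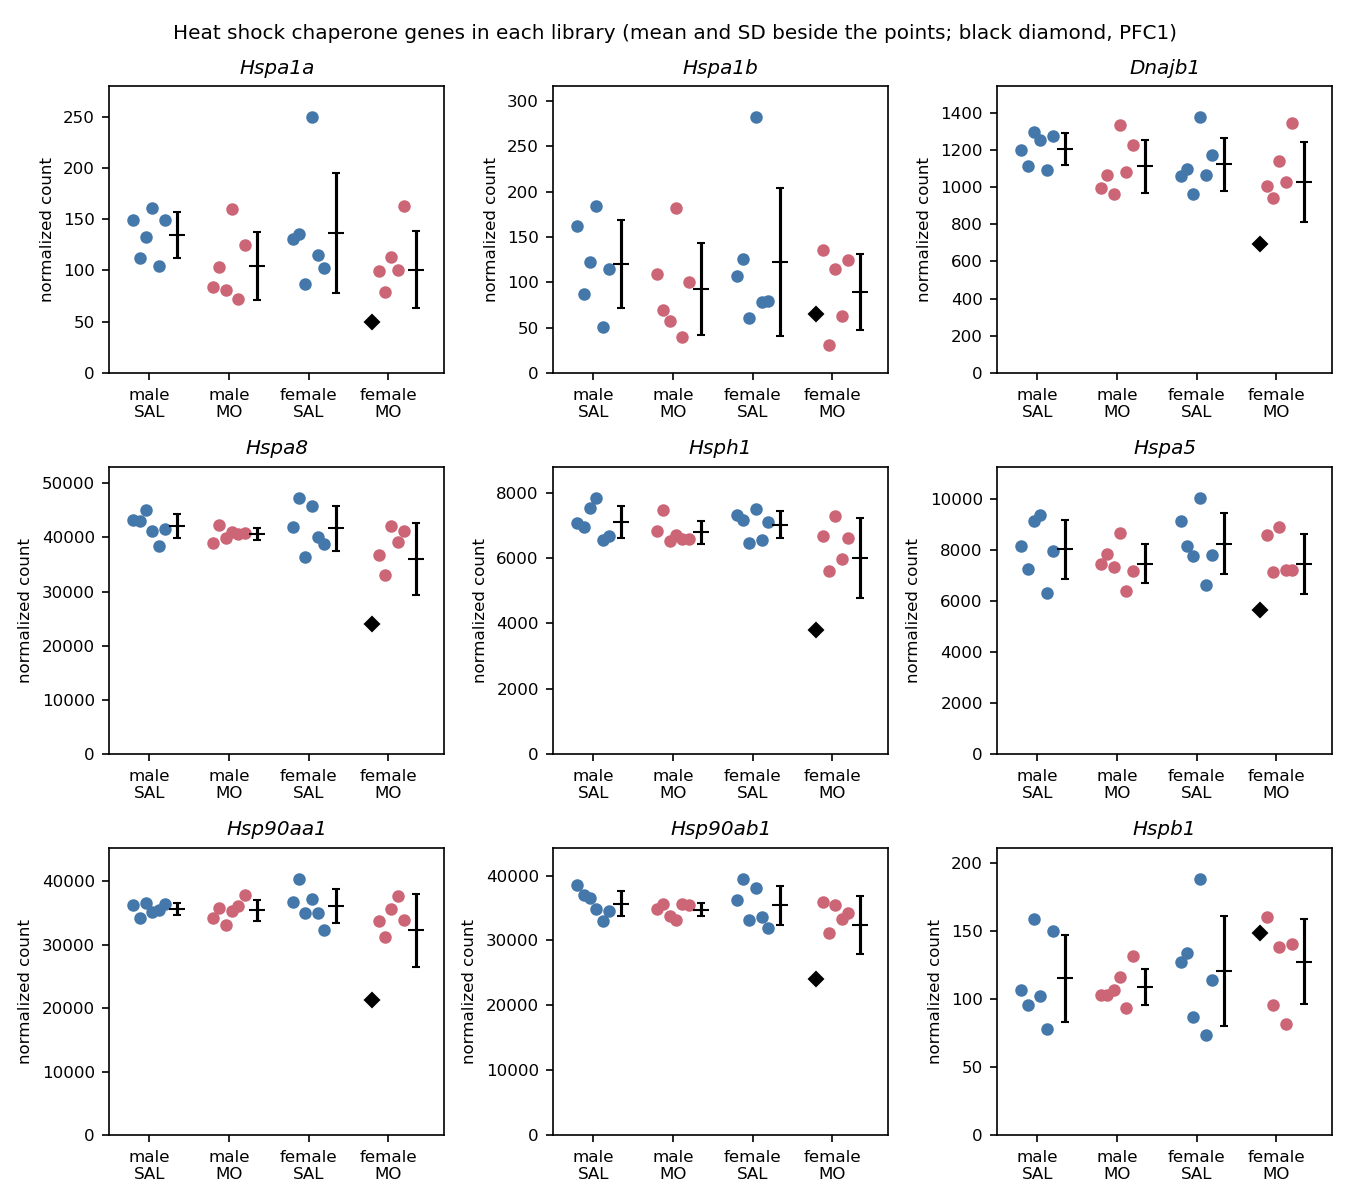
Normalized count of each gene (vertical axes from 0) in each library of the 4 groups (SAL in blue, MO in red), with the mean and SD of the 6 libraries beside the points. PFC1, the black diamond, is the lowest of all 24 libraries for 7 of the 9 genes, at 24077 for Hspa8 and 49.7 for Hspa1a, and lies among the others for Hspa1b and Hspb1.

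Taken over the 9 genes, the count at an unadjusted limma p under 0.05 was 1 in males (Hspa1a), 0 in females and 2 over both sexes (Hspa1a and Hsph1). The share of all genes at this threshold was 2.85% of 16662 in males, 2.93% of 16717 in females and 4.72% of 17303 over both sexes. After Benjamini-Hochberg adjustment over all genes, 0 genes (0%) passed in any of these comparisons, with smallest limma adjusted p-values of 0.9997, 0.918 and 0.847. The difference of the MO effect between sexes was tested as an interaction in limma, where 2.10% of all genes and 0 of the 9 members had an unadjusted p under 0.05. The largest such differences among the members were those of Hsph1 (female minus male log2 fold change -0.19, 95% interval -0.48 to 0.10) and Hspa8 (-0.18, 95% interval -0.47 to 0.11), and without PFC1 they were -0.06 and -0.07.

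In direction, the log2 fold change was below 0 for 9 of 9 members in males and for 8 of 9 in females, while 50.2% and 49.5% of all genes were below 0. In females 26 of 32 other cytosolic chaperones, 14 of 20 endoplasmic reticulum genes and 8 of 8 TRiC chaperonin subunits were also below 0. In males it was 20 of 32, 12 of 20 and 6 of 8. Of 8 mitochondrial chaperones 4 were below 0 in males and 5 in females, and of 7 other small heat shock proteins 3 in each sex. In females without PFC1, 6 of 7 other small heat shock proteins were below 0. It was then 24 of 32 other cytosolic chaperones, 15 of 20 endoplasmic reticulum genes, 8 of 8 TRiC subunits, 5 of 8 mitochondrial chaperones and 8 of 9 members. Of all genes, 48.0% were then below 0. The members share libraries and moved together, as shown next, so their counts are not independent observations. The median log2 fold change of the members was -0.07 in males and -0.18 in females, and -0.07 in females without PFC1, against 0.00 over all genes in both sexes.

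**Figure D3:**
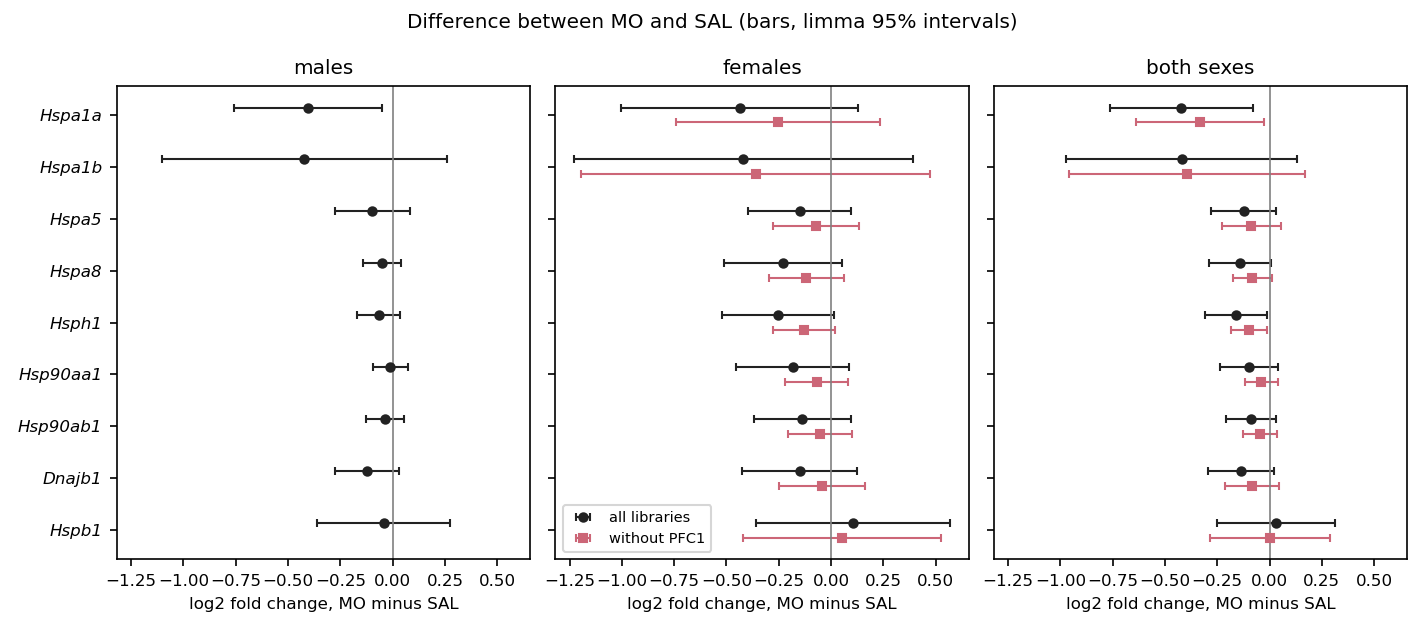
Log2 fold change (horizontal axis, MO minus SAL) of each gene in each sex and over both, with limma 95% intervals as bars, for all libraries (black) and without PFC1 (red). In males the Hspa1a interval ends at -0.05, below 0, and over both sexes those of Hspa1a and Hsph1 end below 0 with and without PFC1, before any adjustment.

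Some genes of the other chaperone lists passed the unadjusted threshold over both sexes, as did 4.72% of all genes. Of 32 other cytosolic chaperones and cochaperones, 1 rose and 1 fell at an unadjusted p under 0.05 over both sexes. These were Hspa12b, an atypical HSP70 family member of the endothelium, with a log2 fold change of 0.26 (SE 0.09, permutation p = 0.0055), and Dnaja4, a J-domain protein, with -0.12 (SE 0.05, permutation p = 0.0247). Of 20 genes of the endoplasmic reticulum chaperones and the unfolded protein response, Herpud1, a degradation factor of that compartment, fell by 0.12 (SE 0.06, permutation p = 0.0417), and 0 rose. Of 8 mitochondrial chaperones, Trap1, the mitochondrial HSP90, fell by 0.08 (SE 0.04, permutation p = 0.0389). Of 7 other small heat shock proteins, Hspb6 rose by 0.28 (SE 0.11, permutation p = 0.0125). None of the 8 subunits of the TRiC chaperonin, which folds actin and tubulin, and none of the 4 genes in the list of heat shock factors passed in either direction, and the most abundant of the latter, Hsbp1, had a log2 fold change of 0.05 (SE 0.04). The limma adjusted p-value of each of these genes was 0.847 or above. Without PFC1, Hspa12b, Dnaja4 and Hspb6 still passed the unadjusted threshold over both sexes, whereas Trap1 and Herpud1 did not. Within males Dnajb2 passed (0.13, SE 0.06, exact permutation p = 0.0563), as did 2.85% of all genes. Within females, where 2.93% passed, Hspa12b rose and Dnaja4, Trap1 and Dnaja3 fell, and only Hspa12b passed without PFC1. The difference of the MO effect between sexes passed for Dnajc7 (-0.15, SE 0.07), and without PFC1 for Hsf1 (-0.24, SE 0.10). Of all genes, 2.10% and 1.93% did. None passed after adjustment.

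Among the lists of other genes, some passed the unadjusted threshold in 1 sex and not in the other, and their part in the values of the members was not tested. Of 14 immediate early genes, which neurons transcribe within minutes of activity, 11 fell in males and 10 over both sexes at an unadjusted limma p under 0.05. Without PFC1, 9 fell over both sexes. In females 0 of 14 passed, with or without PFC1, and the median log2 fold change was -0.44 with it and -0.26 without it. The difference of the MO effect between sexes passed for 0 of 14. Egr1 fell by 0.51 on the log2 scale in males (SE 0.14, exact permutation p = 0.0108) and Fos fell by 0.67 (SE 0.21, exact permutation p = 0.0238). The summed level of the 14 genes was 19820 to 23460 in male SAL, 8019 to 22960 in male MO, 10450 to 23320 in female SAL and 7042 to 22980 in female MO, and none was at 0 in any library. Of 5 blood genes, 1 rose and 1 fell (Hbb-bs) in males, 0 passed in females, and 4 rose over both sexes at an unadjusted p under 0.05, with Hba-a1, an alpha globin, at a log2 fold change of 0.63 (SE 0.24, permutation p = 0.0337). Without PFC1 these 4 still passed in limma, with Hba-a1 at 0.57 (SE 0.24, permutation p = 0.0577). The permutation p of the others was then 0.0779 (Hbb-bt) to 0.0900 (Hba-a2). The summed level of the blood genes was 4218 to 12070 in male SAL, 5518 to 13080 in male MO, 2833 to 10580 in female SAL and 4608 to 18870 in female MO, and the beta globin gene Hbb-bs was at 0 in 16 of the 24 libraries. Of 5 meningeal markers, 3 fell in males and 0 passed in females, and Col1a1, a collagen, fell by 0.69 in males (SE 0.26, exact permutation p = 0.0584). Of 7 markers of endothelium and pericytes, 0 passed in males and 3 rose in females, of which 1 passed without PFC1, and Pecam1, an adhesion molecule of the endothelium, rose by 0.33 in females (SE 0.12, exact permutation p = 0.0260). The difference of the MO effect between sexes passed for 2.10% of all genes. Among these lists it passed for Hbb-bs, for Col1a1 (1.28, SE 0.50) and for Rgs5, of the endothelium and pericyte list (0.30, SE 0.13). Without PFC1, of these 3 lists only Col1a1 passed (1.09, SE 0.48). None passed after adjustment. The cold-inducible genes Cirbp and Rbm3, which rise when tissue cools, did not pass in either direction, with log2 fold changes of 0.09 (SE 0.08) and 0.00 (SE 0.07) over both sexes.

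The second question was whether the members rose and fell together within groups. Each log2 value was taken relative to the mean of its own group, so that mean differences between sexes, tables or drugs do not enter the correlation. Groups with a wider spread still weigh more in it. The Pearson correlation was above 0 in 35 of 36 pairs over the 24 libraries, with a median of 0.61, against a median of 0.00 over all pairs of the 11783 genes. A correlation of at least 0.5 was found in 25 of 36 member pairs and in 10.3% of all gene pairs. Without PFC1 all 36 pairs were above 0, the median was 0.58, and 23 pairs reached 0.5 against 6.64% of all gene pairs. These correlations are descriptions across libraries that share preparation and normalization. In the 12 male libraries the median was 0.42, in the 12 female libraries 0.70, and in the 11 female libraries without PFC1 0.69. Among the 13 libraries whose column is not marked as combined it was 0.47, and among the 11 marked as combined it was 0.82. Those marked were 1 SAL and 2 MO male and 4 SAL and 4 MO female libraries, PFC1 among them. Each subset was centered on its own group means, so the single male SAL library adds nothing to the value of 0.82. The mark can therefore not be told apart from sex and PFC1 here.

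The pairs are described in groups that were made after their values were seen. Among Hspa1a, Hspa1b and Dnajb1 the pairs were not equally close. Hspa1a correlated with Dnajb1 at r = 0.90 (Spearman rho 0.83) and, of the 11782 other genes, Dnajb1 was the most like Hspa1a. Hspa1a correlated with Hspa1b at r = 0.79 (rho 0.83), which also holds the reads exchanged between both copies. Without PFC1 these values were 0.88 and 0.85, and without the 2 libraries farthest from the median of Hspa1a they were 0.84 and 0.81. The third pair, Hspa1b with Dnajb1, had r = 0.61 (rho 0.67, 0.71 without PFC1). That was below Hspa1b with Hspa5 (0.72) and with Hspb1 (0.67), and below Dnajb1 with Hspa8 (0.77), so these 3 genes were not set apart from the other members. For every member except Hspa1a the closest gene lay outside the list, with and without PFC1. For Dnajb1 it was Acin1 (r = 0.93), with Hspa1a at rank 3. The closest member was at rank 42 for Hsph1, and without PFC1 at rank 105 for Hsp90aa1.

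The correlation among Hspa8, Hsph1, Hsp90aa1 and Hsp90ab1 rested in part on PFC1. Over 24 libraries the 6 pairs had r between 0.79 and 0.92, highest for Hspa8 with Hsp90ab1 (rho 0.87). Without PFC1 they lay between 0.25 (Hsph1 with Hsp90aa1) and 0.79 (Hspa8 with Hsp90ab1), with a median of 0.65. Hsph1 with Hsp90aa1 dropped from 0.79 to 0.25, and was 0.19 without the 2 libraries farthest from the median of Hsph1, so that pair did not hold.

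Hspb1 behaved in the opposite way. Over 24 libraries its correlation with these 4 genes lay between -0.02 and 0.21, and without PFC1 between 0.27 and 0.58, and all 8 of its pairs were higher without PFC1. PFC1 was the lowest of 24 libraries for 7 members, whereas its Hspb1 value of 149 was above that of 19 libraries. Relative to the mean of the other 5 female MO libraries, the difference in PFC1 was -55.2% for Hspa1a, -40.9% for Hsph1, -38.0% for Hsp90aa1 and -37.3% for Hspa8, while it was 20.7% for Hspb1. All 7 other small heat shock protein genes were also above, among them Cryab (αB-crystallin) at 2008 against 753 to 1523. Outside PFC1, Hspb1 was most like Hspa5 among the members (r = 0.72), and the gene most like either of them was the same, Pdia4, a disulfide isomerase of the endoplasmic reticulum (r = 0.80 with Hspb1 and 0.95 with Hspa5).

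**Figure D4:**
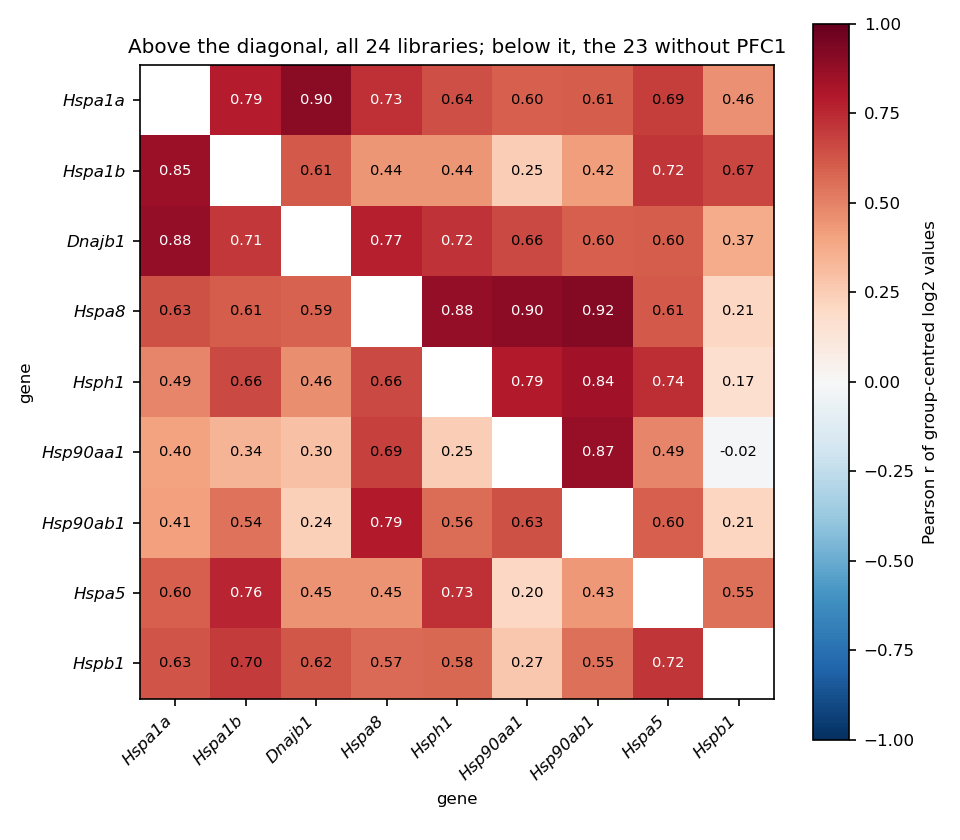
Pearson r between the log2 values of each pair of genes, relative to group means, with all 24 libraries above the diagonal and the 23 without PFC1 below it, on a color scale from -1 to 1. The block of Hspa8, Hsph1, Hsp90aa1 and Hsp90ab1 is strongest above the diagonal, and the row of Hspb1 is stronger below it.

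Some libraries were high or low in all members. PFC7 (female SAL) was above its group mean in all 9 genes, with Hspa1a at 250 and Hspa1b at 283 against at most 136 and 126 in the other 5 female SAL libraries. PFC8 (female MO) was also above in all 9. PFC18 (male SAL), PFC13 (male MO), PFC6 and PFC22 (female SAL) and PFC5 (female MO) were below their group mean in all 9. In PFC18 Hspa1b was at 50.9 and Hspa1a at 104, a ratio of 2.05, whereas in PFC3 (female MO) Hspa1a was at 99.2 and Hspa1b at 136, a ratio of 0.730. The ratio ranged from 0.730 to 2.55 over the 24 libraries. The immediate early genes went the same way in some of these libraries and not in others. Compared with the mean of the other 5 libraries of the group, all 14 were above in PFC7 and PFC8, and all 14 were below in PFC13 and PFC5. In PFC6 13 of 14 were below, in PFC1 13 of 14 and in PFC18 8 of 14. In PFC22, low in all 9 members, 9 of 14 were above, and in PFC24 (female SAL), with 7 of 9 members below the group mean, 11 of 14 were above. Their part in the level of the members was not tested.

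**Figure D5:**
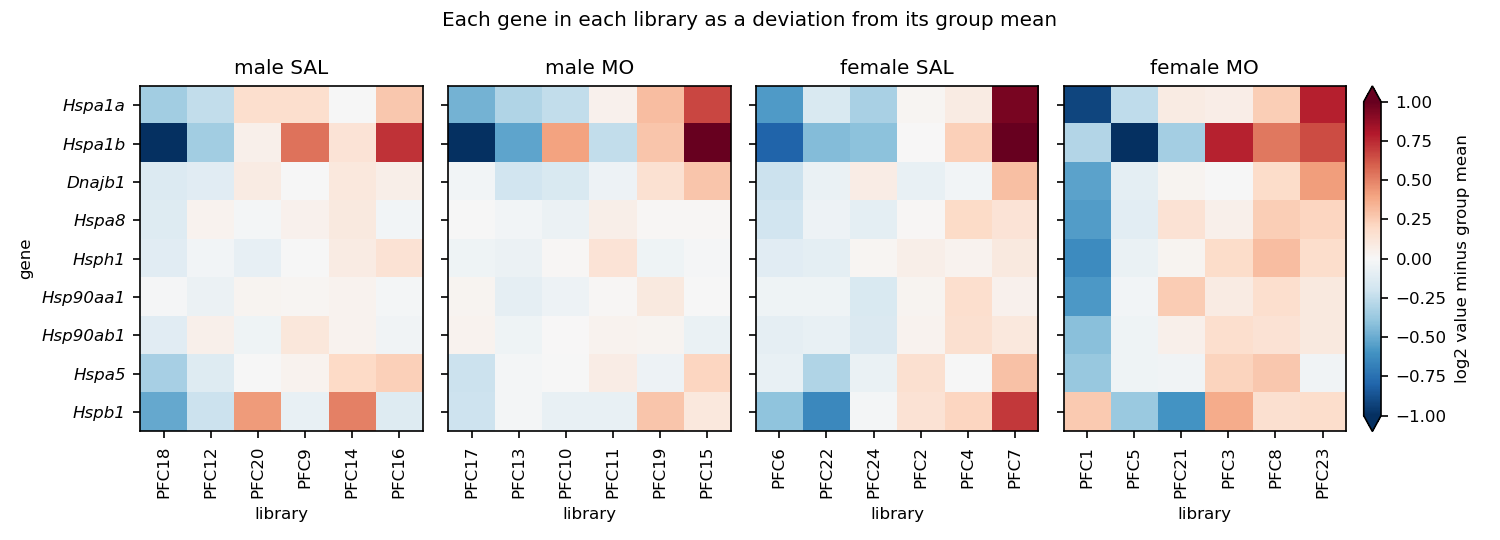
Log2 value of each gene in each library minus the mean of its group (color, from -1 to 1, with stronger values shown at the end of the scale), with libraries ordered within each group by the mean over the 9 genes. Hspa1a and Hspa1b span the widest range, PFC7 is above its group mean in all 9 genes, and PFC1 is below it in 8.

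Genes outside the list that followed the members were found by correlation with the mean standardized value of the 9 genes, again over 24 libraries. Of the 11774 others that reached a mean of 50 in both tables the most like was Stip1 (r = 0.93), which encodes HOP, the cochaperone that passes clients from HSP70 to HSP90. Next were Pkm, a glycolytic enzyme (0.885), Acin1 (0.88), Wipf2 (0.87) and Mtmr4 (0.87). The lowest were Snn (-0.83), Tipin (-0.83) and Nrarp (-0.82). Without PFC1, Stip1 was again first (r = 0.89) and was followed by P4ha1 (0.84), Pkm (0.82), Mphosph10 and Mybbp1a, and the lowest were Haus2, Klf6 and Rnf170. Stip1 itself had means of 3443 ± 113 in male MO, 3507 ± 240 in male SAL, 3199 ± 406 in female MO and 3586 ± 323 in female SAL (SD, n = 6 each).

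Whole lists differed in how closely they followed the 9 genes. The median r with their mean was 0.68 for the immediate early genes, 0.59 for the endoplasmic reticulum genes, 0.56 for the TRiC subunits, 0.43 for the other cytosolic chaperones and 0.24 for the mitochondrial chaperones, against 0.04 over all genes. Without PFC1 these medians were 0.61, 0.53, 0.43, 0.18 and 0.26, against -0.01 over all genes. The 4 other small heat shock proteins that reached a mean of 50 changed sign in their median, from -0.30 with PFC1 to 0.24 without it, as did the markers of oligodendrocytes (-0.10 and 0.41), astrocytes (-0.34 and 0.22), microglia (-0.08 and 0.42), striatum (-0.29 and 0.16) and endothelium (-0.10 and 0.11). The markers of excitatory neurons changed in the other direction, from 0.46 to -0.17. Cirbp and Rbm3 were at -0.22 and -0.34 with PFC1 and at -0.30 and -0.39 without it. Blood markers were at a median of -0.44 with PFC1 and -0.32 without it.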

How the data were processed

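Directional polyA RNA-seq libraries were made from the medial prefrontal cortex of 24 offspring. The authors aligned the reads to mm10 with STAR, estimated transcripts with Salmon and scaled them with DESeq2, in a table for each sex. The deposited values are these normalized counts (a signal that is not whole reads), so no count test was run. The paper gives an approximate read number for its sequencing, and the depth of each library is unknown. Tables were normalized separately, so groups were compared within a table only. Of the columns, 11 are marked as combined (in males 1 SAL and 2 MO, in females 4 SAL and 4 MO). The meaning of that mark is not given in the sources used here.

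Here log2(value + 1) of genes summing to at least 10 was tested with limma 3.58.1 (trend, Benjamini-Hochberg over all genes) in R 4.3.3, with sex as a term over both sexes and an interaction for the difference. Log2 fold changes are on this scale. Single genes were also tested with a two-sided permutation test (exact over all relabellings within a sex, 100000 resamples over both). The fit was tested on simulated data. Sequences and shared stretches came from RefSeq (GRCm38.p6) and annotated transcripts. Alternatives were other pseudocounts, filters, scaling, weights, a term for combined columns and leaving out each library. The members and lists were chosen with earlier results of these data known. Named genes were the 9 members, the 5 most and 3 least alike genes, and from each list the genes at an unadjusted p under 0.05 (up to 4 by smallest p) or otherwise the most abundant. Figures were drawn with matplotlib 3.10.9 in Python 3.11.15.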

Additional observations from a re-analysis of the deposited data

Results flagged for a closer look

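In 3 of 36 groups of 6 libraries a single library lay farther from its neighbor than Dixon's criterion allows, and chance gives about 1 in 20. The female SAL library PFC7 had a normalized count of 250 for Hspa1a, with 136 in the next library, and of 283 for Hspa1b, with 126 in the next library. These are not independent, since both genes share sequence. Without PFC7 the log2 fold change in females was -0.25 for Hspa1a and -0.14 for Hspa1b. The male MO library PFC11 had a normalized count of 7463 for Hsph1, with 6818 in the next library.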

How the results depend on the processing

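Of 903 recomputed log2 fold changes of single members, 831 kept their direction and their side of an unadjusted p of 0.05, 44 reversed, 16 gained and 12 lost the call. The count of members at that threshold in males was 2 with array weights and 0 to 3 when a library was left out (3 without PFC18 or PFC15). It was 0 to 2 in females (2 without PFC23, 1 without PFC3 or PFC8), and over both sexes 1 when scaled to Gapdh and Ppia and 1 to 4 when a library was left out (4 without PFC18 or PFC23). The count for the difference between sexes was 0 each time. Median correlations between members were 0.417 in males, 0.466 in libraries not marked combined and 0.822 in combined ones, which are mostly female and include PFC1. They were 0.582 to 0.668 when a library was left out.

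With array weights the log2 fold change of Hspb1 over both sexes was -0.0348, and the difference between sexes was 0.0896 for Hspa1a, -0.0904 for Hspa1b and 0.0832 for Dnajb1. Scaled to Gapdh and Ppia, that difference was 0.0846 for Hspa1a, 0.0664 for Hspa5, 0.0186 for Hsp90ab1 and 0.0915 for Dnajb1. Its median over all genes was then 0.111, against -0.00447 without that scaling. Leaving out a library gave -0.03 to 0.00792 for Hsp90aa1 in males. For Hspb1 it gave -0.146 to 0.0585 in males, -0.0236 to 0.246 in females and -0.0337 to 0.0947 over both. For the difference between sexes it gave -0.187 to 0.158 for Hspa1a, -0.206 to 0.284 for Hspa1b, -0.112 to 0.0243 for Hspa5 and -0.11 to 0.08 for Dnajb1. Values without PFC1 for lists, alike genes and correlations, and the sum of Hspa1a and Hspa1b, were chosen after seeing the data. The causes were not tested. No paired analysis was possible because no label gives groups a shared replicate number. The depth of each library is unknown, so counting error could not be separated from the spread between animals.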
